A study of Mus musculus with 32 samples.

Results

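To examine accessible chromatin in the posterior side of the hindlimb bud after forced expression of Etv2, 7 ATAC-seq libraries of 32 in the series were analysed. In ATAC-seq the Tn5 transposase inserts adapters where DNA is not wrapped by nucleosomes, and a summit is the position where the piled-up insertions are highest. All libraries whose label number ended in P were taken, which gave 3 Etv2_OE and 4 WT_Control libraries, labelled E10.5 hindlimb. They are called Etv2_OE 7, 9 and 10 and controls 1 to 4 here, after the label numbers. The 7 libraries whose numbers ended in A, from the same label numbers, were used as the anterior side for comparison. The letters were read as anterior and posterior.

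By the study's methods, the overexpressing embryos carried 3 transgenes. HoxB6-Cre is active in the hindlimb mesoderm, ROSA26-STOP-rtTA-IRES-EGFP makes the reverse transactivator and EGFP after Cre has acted, and iHA-Etv2 makes HA-tagged Etv2 from a tetracycline-inducible promoter when doxycycline is given to the dam. The study did not find tagged ETV2 in every cell of the bud. Each list pools whichever cells were collected for that library. The labels call the controls WT. The study's text describes controls without HoxB6-Cre that carry both other transgenes in one place, and littermates without iHA-Etv2 or rtTA in another, and doxycycline to the dam reached controls too. The methods describe a later harvest than the labelled E10.5. The labels of all samples, these included, give a sort for EYFP-positive live cells negative for the endothelial and blood surface proteins CD31, Tie2 and CD45, and the ATAC-seq methods refer to the same procedure. The reporter of these embryos is EGFP, and how the gate was applied to them and to controls is not described.

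ETV2 is an ETS-family transcription factor best known for starting the endothelial and blood lineages, where Kdr and Tal1 are classical targets. ETS proteins bind a core of GGAA, and the motif counted here was any of the 6 words AAGGAAAT, AAGGAAGT, CAGGAAAT, CAGGAAGT, GAGGAAAT and GAGGAAGT on either strand. In the limb bud, Shh is made at the posterior margin, and its limb enhancer, the ZRS, lies in an intron of the neighbouring gene Lmbr1. Tal1 encodes a basic helix-loop-helix factor of early blood cells, and Kdr encodes the VEGF receptor of endothelial precursors.

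The lists contained no read counts, so the depth of the libraries is unknown. The Etv2_OE lists held 47051, 38148 and 38725 summits and the control lists 52372, 51265, 54676 and 53992. The lists did not overlap in length, with a mean of 41308 ± 4982 (SD, n = 3) against 53076 ± 1546 (SD, n = 4, two-sided exact permutation test p = 0.0286, the smallest that 3 against 4 libraries can give). For equal length, the top 30000 summits of each list were compared. At rank 30000 the −log10 q was 5.58, 3.95 and 3.97 in Etv2_OE and 8.19, 6.98, 7.05 and 7.90 in controls, so that equal rank corresponded to weaker summits in the Etv2_OE libraries.

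Control 1 stood apart from the other controls. It listed 18 summits on chromosome Y, against 53, 63 and 67 in controls 2 to 4, and the Etv2_OE libraries listed 18, 21 and 21. In whole lists, a window of 4001 bp at the start of Xist, the RNA of the inactive X chromosome, held a summit in control 1. All 3 Etv2_OE libraries listed it as well, and none of controls 2 to 4 did. In the top 30000 it was listed in 2 of 3 Etv2_OE and 0 of 4 control libraries, with control 1 at rank 33704. Its anterior library showed the same, with 17 summits on chromosome Y against 56, 54 and 55, and 16, 15 and 16 in Etv2_OE. Its share of summits with the ETV2 motif, given below, also lay among those of Etv2_OE. Nothing in the sources used here settles whether the label of this library is right, and it was kept as a control. Sex and Etv2 overexpression cannot be told apart when control 1 is left out, and results that turn on this library are given with and without it below. The top 30000 summits were shared between pairs of controls at 75.9% to 77.5%, between Etv2_OE and control at 72.3% to 74.9%, and between pairs of Etv2_OE libraries at 71.3% to 71.5%. Control 1 shared 75.9%, 76.2% and 76.6% with controls 2 to 4, and 74.6%, 73.4% and 74.2% with Etv2_OE 7, 9 and 10. By this measure, and by its list length and −log10 q at rank 30000, it stood with the other controls.

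Landmark sites were checked in the whole lists, which differ in length. Isl1, a gene of the posterior hindlimb field, had a summit at its start at ranks 1636, 1769 and 1799 in Etv2_OE and 3688, 3740, 2189 and 1899 in controls, while the 7 anterior lists had it at ranks 3680 to 7344. Relative to list length the posterior groups overlapped, at 3.48%, 4.64% and 4.65% from the top in Etv2_OE and 7.04%, 7.30%, 4.00% and 3.52% in controls. Tbx2, a posterior marker, was listed in 7 of 7 posterior libraries and in 1 of 7 anterior ones, whose lists were shorter. In the top 30000 it was listed in 1 of 3 Etv2_OE and 0 of 4 control posterior libraries and in 0 of 7 anterior ones, so the sides were hardly separated at equal length. Hand2, a posterior activator of Shh, was listed in 2 of 3 Etv2_OE and 4 of 4 control libraries and also in 2 of 3 and 3 of 4 anterior libraries. At equal length, in the top 30000, it was listed in 2 of 3 Etv2_OE libraries on each side. Among controls it was then listed in 3 of 4 posterior and 0 of 4 anterior libraries, so only the controls differed between the sides. Tbx5, the forelimb gene, had no summit at its start in any of the 14 libraries, and Tbx4, the hindlimb gene, was listed in 2 of 3 Etv2_OE and 4 of 4 control libraries. Of the endogenous genes after which the transgenes are named, the start of Etv2 was listed in 2 of 3 Etv2_OE and 0 of 4 control libraries (two-sided Fisher's exact test p = 0.143, and 0.4 without control 1), at ranks 39509 and 25309, and the start of Hoxb6 in 7 of 7. A summit within Etv2 anywhere was listed in 2 of 3 Etv2_OE and 3 of 4 control libraries, and these sites do not check the overexpression from the transgene.

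The ZRS held a summit in all 7 whole posterior lists, and in 3 of 3 Etv2_OE and 3 of 4 control libraries in the top 30000. No gained or lost interval, as defined below, lay in it. That rule asks only whether a summit is listed, and cannot measure a rise at a site that every whole list holds. From qPCR of ATAC-seq libraries with primers in the ZRS, the study reports higher accessibility with Etv2 on the anterior and the posterior side alike. Etv2_OE 7 had a summit at chr5:29315002 (mm10), rank 11521, Etv2_OE 9 at chr5:29314798, rank 23169, and Etv2_OE 10 at chr5:29314780 and chr5:29315267, ranks 29484 and 23815. The controls had theirs at chr5:29315323, chr5:29315322, chr5:29315224 and chr5:29315233, at ranks 22178, 21020, 32926 and 21334. Each control summit thus lay within about 100 bp of the others, whereas every Etv2_OE library had a summit to the left of the controls or, in Etv2_OE 10, both there and among them. The rank of Etv2_OE 7 was the best of the 7. Relative to the length of each list, the best ZRS summit stood 24.5%, 60.7% and 61.5% from the top in Etv2_OE and 42.3%, 41.0%, 60.2% and 39.5% in controls. Etv2_OE 7 lay above all controls by rank and by this share. By rank, Etv2_OE 9 and 10 stood ahead of control 3 and behind the other controls. Their shares lay below control 3 as well only because their lists were shorter. On the anterior side the ZRS was listed in 3 of 3 Etv2_OE and 2 of 4 control libraries, and the posterior order of positions was not seen. Anterior Etv2_OE 7 and 9 had summits 668 and 717 bp from the start of the ZRS, where the posterior controls had theirs, and Etv2_OE 10 at 192 bp. Anterior controls 1 and 2 had summits further left, at 398 and 21 bp.

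The ZRS, 1676 bp long, held 5 ETV2 words, shown here because the summit positions are read against them. Each is printed with its flanks as 30 bases of the plus strand (GRCm38.p6), the word in capitals, and named by the distance of the word from the start of the ZRS.
ZRS site at 379: gcccaagtcaaATTTCCTTgcaaggttccc
ZRS site at 423: tcttgcctgtgATTTCCTTtcacccagcag
ZRS site at 484: cactaagcagcACTTCCTGaatcgctcatt
ZRS site at 866: actaattaagaGAGGAAGTgacctcagatt
ZRS site at 1642: cctcactacacGAGGAAGTaaaatccctac
Among the posterior libraries, the sites at 379, 423 and 484 were closest to the summit of Etv2_OE 7, at 29, 15 and 76 bp. The nearest posterior control summits were 251, 207 and 146 bp away. These Etv2_OE distances come from Etv2_OE 7 alone. Etv2_OE 9 had its summit at 207 bp from the ZRS start, and Etv2_OE 10 at 189 and 676 bp. The sites at 866 and 1642 lay 193 and 969 bp from the nearest posterior Etv2_OE summit. From the nearest posterior control summit they lay 137 and 913 bp. On the anterior side, control 1 had its summit at 398 bp, between the sites at 379 and 423. A match of letters is a description and does not show binding.

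**Figure D1:**
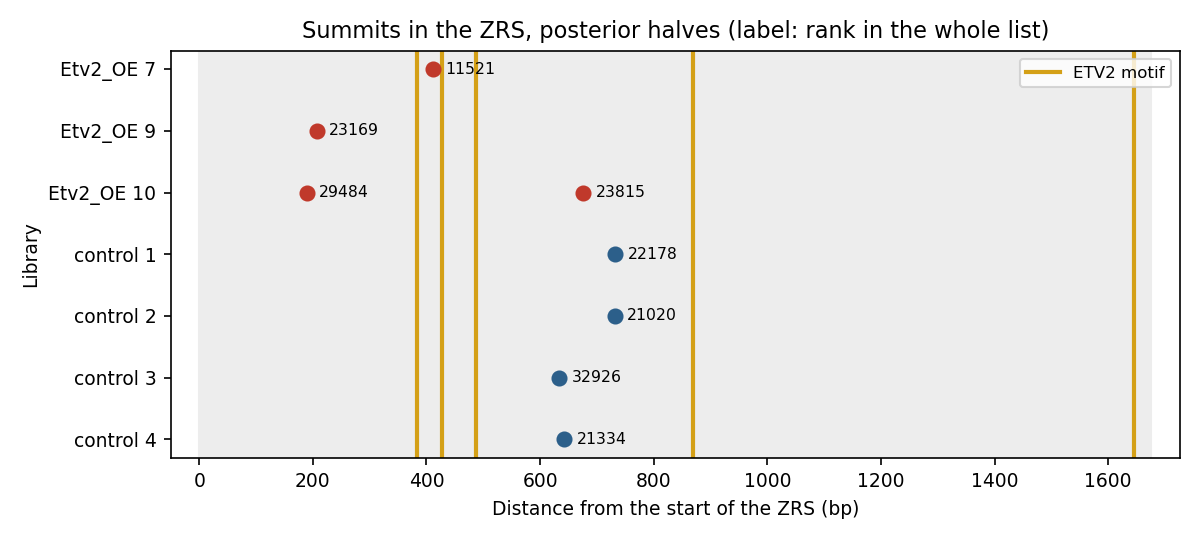
Summits in the ZRS in the 7 posterior libraries (red, Etv2_OE; blue, control). The x axis is the distance from the start of the ZRS in bp, each row is a library, each point is a summit with its rank in the whole list, and the yellow lines are the 5 ETV2 words. The 4 control summits lie between 633 and 732 bp, and the Etv2_OE summits between 189 and 676 bp.

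The other classical sites were listed in both groups or hardly at all. The start of Kdr held a summit in 7 of 7 libraries, at ranks 18606, 14399 and 16463 in Etv2_OE and 16613, 24469, 20593 and 19428 in controls, and these ranges overlapped. A site 4 kb upstream of Tal1 was listed in 7 of 7 as well, with ranks of 39873, 22594 and 22370 in Etv2_OE and 17712 to 27650 in controls. Relative to list length these stood 84.7%, 59.2% and 57.8% from the top in Etv2_OE and 33.8%, 49.4%, 50.6% and 45.3% in controls. An equal rank stands lower in a shorter list, so no direction can be read from these shares. By rank, Etv2_OE 9 and 10 lay within the range of the controls. The top 30000 held the site in 2 of 3 Etv2_OE and 4 of 4 control libraries. In the anterior libraries it stood at 55.1%, 64.3% and 44.2% in Etv2_OE and 55.4%, 78.1%, 94.2% and 74.3% in controls, and these overlapped. The start of Shh was listed only in control 4, at rank 51424 of its list, and the start of Lmbr1 in 7 of 7.

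Next, regions that differed between Etv2_OE and control were sought among 40959 intervals of 200 bp that at least 2 libraries listed. Each interval received a rank score per library, which is 1 for the best summit, close to 0 for the last of the top 30000 and 0 when the library had no summit within 200 bp. By limma with Benjamini-Hochberg adjustment, 0 intervals were higher and 0 lower (0% called), with a lowest adjusted p of 0.339. This depended on the variance model, since limma without the trend called 25 higher and 17 lower, and on quantile-normalized log2 values 3 and 3. At an unadjusted p under 0.05 were 2102 intervals (5.13%), of which 1076 were higher and 1026 lower. By listing alone, 164 intervals (0.4%) were listed in all 3 Etv2_OE and in none of the 4 controls, here called gained, and 195 (0.476%) were listed in all 4 controls and in no Etv2_OE library, here called lost. With whole lists, which are longer in the controls, the counts were 136 and 935. In comparison, 14736 intervals were listed in all 7. Without regard to control 1, 312 intervals were listed in all 3 Etv2_OE and in none of controls 2 to 4, and control 1 listed 148 of them. In the opposite direction there were 396, of which control 1 listed 195.

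The intervals with the largest differences all had a summit of the other group close by. All 8 named gained and all 8 named lost intervals had a summit of every library of the other group within 1 kb. The promoter of Alg14, a subunit of an enzyme of N-glycan synthesis, gave the largest value. The interval chr3:121291558-121291757 had rank scores of 0.951, 0.980 and 0.973 in Etv2_OE and 0 in each control (difference 0.97 ± 0.14, SE), and the summits of the controls lay 201 to 356 bp away. Counting summits within 1000 bp in place of 200 bp, this difference was -0.01.

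Gulp1, which encodes an adaptor for the engulfment of dying cells, had a gained and a lost interval side by side in an intron. In chr1:44679091-44679290, 9953 bp from the start, the scores were 0.911, 0.848 and 0.881 in Etv2_OE and 0 in the controls. In chr1:44679452-44679651 they were 0.904, 0.929, 0.927 and 0.868 in the controls and 0 in Etv2_OE. By the listing rule the scores of such intervals cannot overlap between groups. The summit stood in a different interval of the same region in each group. The same was seen at Pyurf, with the gained chr6:57691542-57691741 (0.888, 0.860 and 0.908 in Etv2_OE) next to the lost chr6:57691796-57691995 (0.853, 0.787, 0.873 and 0.859 in controls). The Gulp1 intervals are printed here as the clearest pair, from the plus strand of GRCm38.p6 in lower case, since neither holds an ETV2 word.
Gulp1 gained: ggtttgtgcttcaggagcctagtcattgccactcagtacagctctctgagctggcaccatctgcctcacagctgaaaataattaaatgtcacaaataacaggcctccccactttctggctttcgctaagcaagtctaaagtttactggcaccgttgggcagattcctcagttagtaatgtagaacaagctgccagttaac
Gulp1 lost: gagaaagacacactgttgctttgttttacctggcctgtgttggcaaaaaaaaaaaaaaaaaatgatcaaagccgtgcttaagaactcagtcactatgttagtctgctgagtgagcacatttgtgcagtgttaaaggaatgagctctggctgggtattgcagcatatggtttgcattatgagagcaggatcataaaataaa

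The other named gained intervals lay nearest to Klf4, a zinc-finger factor, Arrdc3, an arrestin-family adaptor, Tmtc2, a mannosyltransferase, Atp2b1, a calcium pump of the plasma membrane, and Sema3d, a secreted guidance protein. Their differences ranged from 0.69 to 0.77, and the control summits were 210 to 984 bp away. The other named lost intervals lay nearest to Dele1, a relay of mitochondrial stress, Gmnc, a regulator of multiciliated cells, Skil, a repressor of SMAD signalling, Hace1, a ubiquitin ligase, Clcn4, a chloride and proton exchanger, and St3gal3, a sialyltransferase. These differed by -0.69 to -0.88, with Etv2_OE summits 201 to 400 bp away. Of the 16 named intervals, 4 gained and 5 lost ones were promoters, and 1 lost interval held an ETV2 word. None passed limma with a trended variance, with adjusted p of 0.339 to 0.851. With the trend off all 16 passed, with limma adjusted p of 0.00131 to 0.0337, and on quantile-normalized log2 values those of Alg14, Dele1, Gulp1 and Pyurf passed. The values describe what the listing rule chose.

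**Figure D2:**
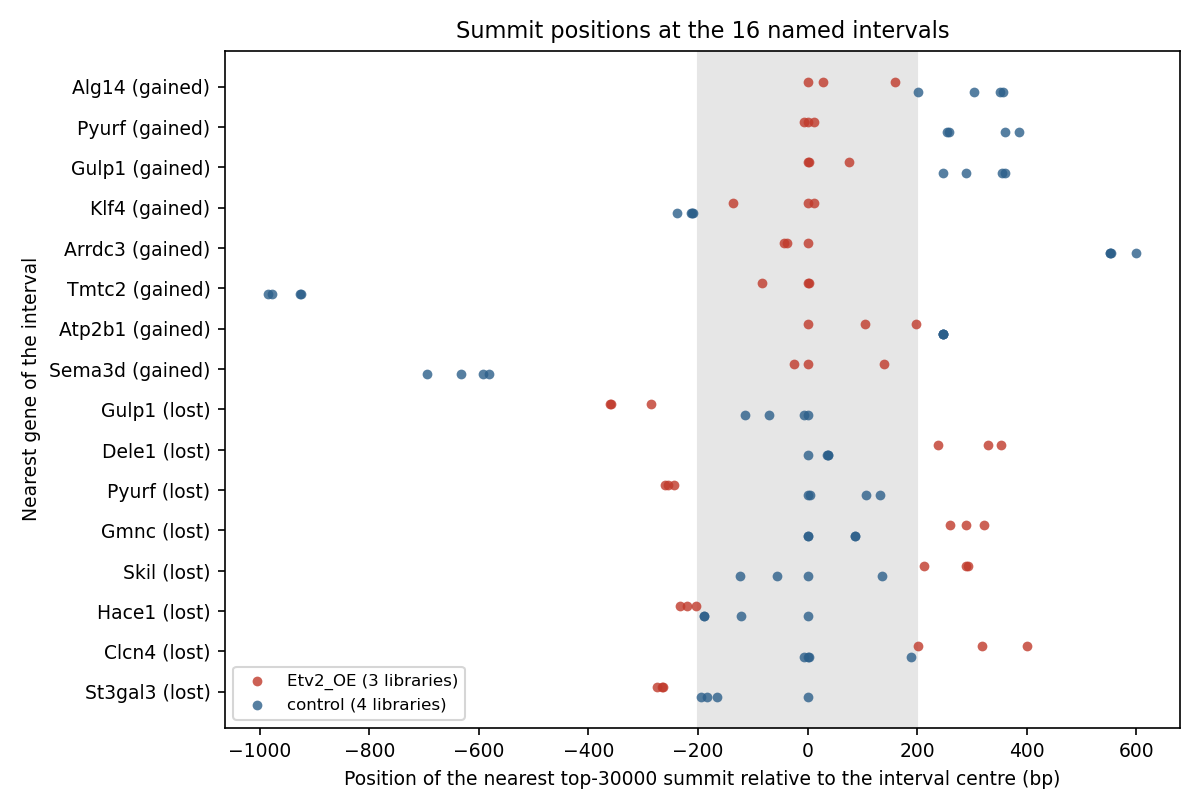
Position of the nearest top-30000 summit of each library at the 16 named intervals, in bp from the interval centre on the x axis (red, 3 Etv2_OE libraries; blue, 4 controls). The grey band is the 200 bp within which a library counted as listed. The summits of the other group lie outside the band but no further than 984 bp.

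Among all gained intervals, 85 of 164 had a control summit within 1 kb in the top 30000, and 46 of these had one in all 4 controls. The remaining 79 (48.2%) had none there, but only 2 (1.22%) had none in the whole control lists. Among lost intervals, 60 of 195 had an Etv2_OE summit within 1 kb, 135 (69.2%) had none in the top 30000, and 36 (18.5%) had none in the whole Etv2_OE lists. The Etv2_OE lists were shorter, which bears on the last count.

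Of the gained intervals without a control summit within 1 kb, the highest were the promoters of Rasl2-9, a gene of the Ras family, and Sall4, which encodes a zinc-finger factor of limb patterning. At the Sall4 promoter (chr2:168767214-168767413) the rank scores were 0.560, 0.314 and 0.578 in Etv2_OE and 0 in all controls, a difference of 0.48 ± 0.13 (SE). The nearest top-30000 summits of the controls were 1916 to 25882 bp away. At Rasl2-9 (chr7:5125915-5126114) the difference was 0.51 ± 0.12 (SE). Next followed an intergenic interval near Manea (0.43) and an intron of Cdkal1 with the start of Sox4 as the nearest, 446383 bp away (0.42). In the anterior libraries, Rasl2-9 was listed in 1 of 3 Etv2_OE and 2 of 4 controls, and Sall4 in 3 of 3 and 2 of 4. The interval near Manea was listed there in 2 of 3 and 3 of 4, and that in Cdkal1 in 0 of 3 and 0 of 4.

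Of these 79 intervals, 14 held an ETV2 word. From the 14, 4 intervals over 1 kb from a start are printed here, because they combine both features. Their bases are from the plus strand of GRCm38.p6, with the word in capitals. They were ranked by difference within a part of the 14, so other intervals with a word may differ more. The words of Afap1 and Adcyap1 lie on the minus strand.
Afap1: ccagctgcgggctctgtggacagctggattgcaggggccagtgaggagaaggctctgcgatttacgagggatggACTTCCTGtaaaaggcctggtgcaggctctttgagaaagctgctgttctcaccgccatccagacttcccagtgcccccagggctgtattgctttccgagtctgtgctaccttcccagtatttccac
Adcyap1: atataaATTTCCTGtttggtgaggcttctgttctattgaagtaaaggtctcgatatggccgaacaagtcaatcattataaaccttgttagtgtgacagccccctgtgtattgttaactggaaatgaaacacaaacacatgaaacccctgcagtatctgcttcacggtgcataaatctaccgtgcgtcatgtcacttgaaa
Eci2: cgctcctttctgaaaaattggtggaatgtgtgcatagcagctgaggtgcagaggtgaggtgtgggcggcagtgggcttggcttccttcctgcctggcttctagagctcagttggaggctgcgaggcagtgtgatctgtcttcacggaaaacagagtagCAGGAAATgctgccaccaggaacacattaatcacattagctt
Oxr1: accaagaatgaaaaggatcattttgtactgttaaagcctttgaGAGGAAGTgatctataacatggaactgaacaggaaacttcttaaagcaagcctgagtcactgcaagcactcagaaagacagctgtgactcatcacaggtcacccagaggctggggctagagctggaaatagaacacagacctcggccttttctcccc
In the intron of Afap1, an actin-binding adaptor (chr5:35925564-35925763), the rank scores were 0.197, 0.339 and 0.619 in Etv2_OE. At 61561 bp from Adcyap1, which encodes the neuropeptide PACAP (chr17:93260629-93260828), they were 0.275, 0.144 and 0.588. At 195176 bp from Eci2, an enzyme of fatty acid oxidation (chr13:35189357-35189556), they were 0.239, 0.008 and 0.596, and in an intron of Oxr1, a gene of oxidative stress resistance (chr15:41612272-41612471), 0.137, 0.205 and 0.492. Etv2_OE 10 was the highest of the 3 at each of these intervals, and the posterior controls were at 0. In the anterior libraries, Afap1 was listed in 0 of 3 Etv2_OE and 0 of 4 controls, and Adcyap1 in 2 of 3 and 2 of 4. There Eci2 was listed in 2 of 3 and 3 of 4, and Oxr1 in 1 of 3 and 2 of 4.

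The lost intervals without an Etv2_OE summit within 1 kb were led by an intron of Adgrg1, an adhesion receptor (chr8:94994092-94994291). The controls scored 0.569, 0.666, 0.746 and 0.591 there and each Etv2_OE library 0, a difference of -0.64 ± 0.15 (SE). Intervals near Pcsk1, a prohormone convertase, and Rap1gap, a regulator of the GTPase Rap1, followed at -0.57 and -0.55, and the promoter of Dlst, a subunit of a mitochondrial dehydrogenase, at -0.51. Adgrg1 was uniform among controls, whereas Rap1gap ranged from 0.269 to 0.803. In the anterior libraries, Adgrg1 and Pcsk1 were each listed in 3 of 3 Etv2_OE and 2 of 4 controls. There Rap1gap was listed in 3 of 3 and 3 of 4, and Dlst in 2 of 3 and 4 of 4.

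By genomic class, gained and lost intervals both held fewer promoters than all tested intervals. Promoters, within 1 kb of a protein-coding start, were 24.4% of gained and 22.1% of lost intervals, against 34.8% of all tested and 52.4% of those listed in all 7. Introns were 31.1% and 37.4%, intergenic sequence 42.7% and 39.0%, and exons 1.83% and 1.54%. Over all tested intervals these were 27.0%, 36.3% and 1.91%. Without a summit of the other group within 1 kb, promoters were 5.06% of gained (4 of 79) and 14.1% of lost intervals (19 of 135), and intergenic sequence 58.2% and 42.2%. The median GC content was 51.5% in both full sets and 53.5% over all tested. Over 50% of the bases were masked as repeats in 4 gained (2.44%) and 2 lost intervals (1.03%), against 1.54% of all tested.

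They differed more in motifs, which are given as a description. An ETV2 word was present in 23 of 164 gained intervals (14.02%), 13 of 195 lost intervals (6.67%) and 10.4% of all tested. Over 1 kb from a start the shares were 16.1%, 7.24% and 12.2%. Among intervals without a summit of the other group within 1 kb they were 17.7% of 79 and 7.41% of 135. The broader ETS motif, AGGAA or CGGAA followed by A or G, which every ETV2 match contains, was in 57.9% of gained, 40.0% of lost and 50.3% of all intervals. The CTCF motif, for the insulator protein CTCF, ran the other way, with 1.83% of gained, 6.67% of lost and 3.92% of all. The TEAD word GGAATG was in 6.71% of gained, 11.8% of lost and 11.7% of all. The listing of control 1 bears on the ETS values, since 17.3% of the 312 intervals listed in all Etv2_OE and none of controls 2 to 4 held the ETV2 motif, against 6.06% of the 396 in the other direction.

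Per library, the share of top-30000 summits with an ETV2 word within 100 bp was higher in Etv2_OE than in controls 2 to 4 but not than in control 1. Among summits over 1 kb from a start it was 11.9%, 13.6% and 13.8% in Etv2_OE, 13.7% in control 1 and 10.7%, 10.8% and 11.2% in controls 2 to 4. The difference from all controls was 1.47 percentage points (two-sided exact permutation test p = 0.200, adjusted p = 0.338 over 22 shares). Without control 1 it was 2.17 points with no overlap (exact p = 0.1, the smallest that 3 against 3 can give). Over all summits, the shares were 10.7% ± 0.57 (SD, n = 3) and 9.75% ± 1.00 (SD, n = 4), a difference of 0.91 points that did not pass (exact permutation p = 0.229, adjusted p = 0.343 over the ETV2, promoter and GC shares). Without control 1 it was 1.41 points with no overlap (exact permutation p = 0.1).

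The same order of libraries was found in parts of the data. In each of 3 equal rank classes of the top 30000, the 3 Etv2_OE libraries and control 1 each exceeded controls 2 to 4, and so they did for summits with under 45%, 45 to 55% and over 55% GC. At promoters the shares were 6.91%, 6.60% and 6.73% in Etv2_OE and 7.23%, 6.54%, 6.68% and 6.51% in controls, and here controls 2 to 4 overlapped Etv2_OE. The anterior libraries gave 12.68%, 13.97% and 14.84% in Etv2_OE, 14.3% in control 1 and 10.9%, 11.4% and 11.6% in controls 2 to 4. The posterior and anterior differences over all summits differed by -0.25 points (exact permutation p = 0.0286, adjusted p = 0.657 over 23 shares). How far Etv2, sex or library quality contributed was not tested.

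**Figure D3:**
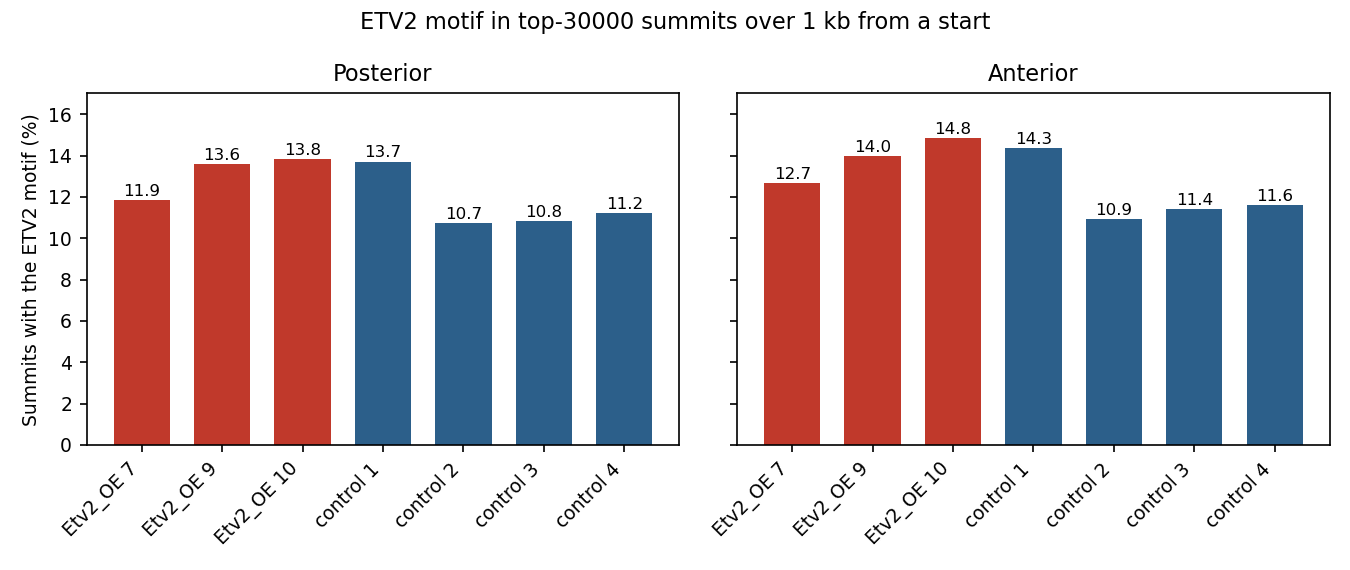
Share of top-30000 summits over 1 kb from a start with an ETV2 word, in percent, for each library of the posterior and anterior sides (red, Etv2_OE; blue, control). Control 1 lies at 13.7% and 14.3%, among the Etv2_OE libraries, and controls 2 to 4 lie lower on both sides.

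The change at the intervals themselves was small. The 3268 tested intervals over 1 kb from a start with an ETV2 word had mean rank scores of 0.278, 0.292 and 0.306 in Etv2_OE, 0.305 in control 1 and 0.258, 0.254 and 0.249 in controls 2 to 4 (exact permutation p = 0.171 with all controls). The 23453 without a word had 0.292, 0.273 and 0.280 against 0.281, 0.289, 0.291 and 0.282, and the groups overlapped. Of the intervals with a word, 20 (0.612%) were gained and 11 (0.337%) lost, and of those without, 104 (0.443%) and 141 (0.601%).

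Other motifs followed in the same lists. The composite word AACAGGAA, which overlaps the ETV2 words, was in 2.80%, 3.19% and 3.37% of Etv2_OE summits over 1 kb from a start, 3.35% in control 1 and 2.24% to 2.43% in controls 2 to 4. The CTCF motif was the one that fell furthest below, with 5.41%, 4.31% and 4.44% in Etv2_OE and 5.59%, 5.76%, 5.98% and 5.65% in controls (difference -1.03 points, exact permutation p = 0.0286, adjusted p = 0.157). Here control 1 lay with the other controls, although Etv2_OE 7 lay closer to them than to the other Etv2_OE libraries. The PITX word TAATCC and the LHX word TAATTA were higher in Etv2_OE without overlap, by 0.33 and 0.31 points, the former with 6.82%, 7.08% and 7.03% against 6.74%, 6.57%, 6.60% and 6.67%, each at the same exact permutation p of 0.0286 and adjusted p of 0.157. In the anterior libraries CTCF and LHX overlapped between groups and PITX did not.

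The mean GC content of the 200 bp around top-30000 summits was 55.3% ± 0.11 (SD, n = 3) in Etv2_OE and 55.7% ± 0.17 (SD, n = 4) in controls (difference -0.40 points, exact permutation p = 0.0286, adjusted p = 0.0857 over 3 shares). The promoter share was 38.2% ± 0.76 (SD, n = 3) and 38.3% ± 0.38 (SD, n = 4), a difference within the spread (exact permutation p = 0.971). Both depended on the equal list length. With whole lists the promoter share was 5.27 points higher in Etv2_OE (exact permutation p = 0.0286, adjusted p = 0.0857) and the GC content 0.80 points higher (exact permutation p = 0.0571, adjusted p = 0.0857).

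**Figure D4:**
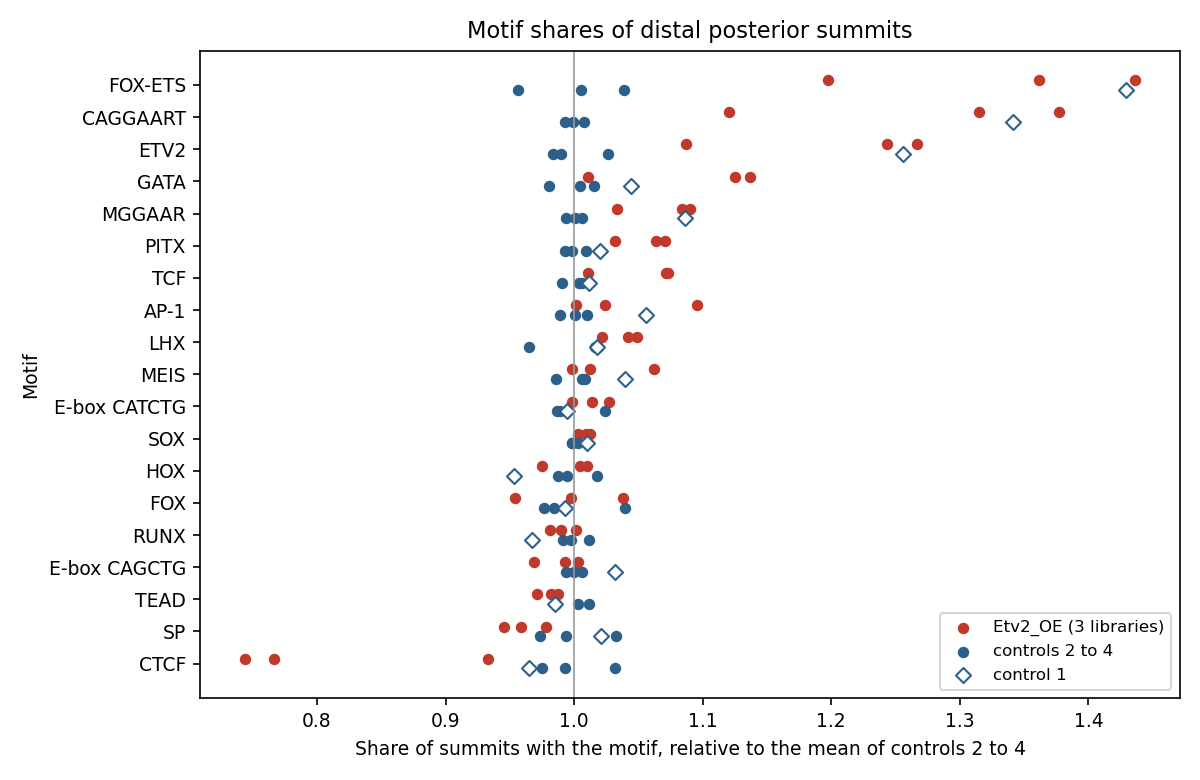
Share of posterior summits over 1 kb from a start that hold each motif, divided by the mean of controls 2 to 4, for motifs in over 1% of control summits (red, Etv2_OE; filled blue, controls 2 to 4; open diamond, control 1). Control 1 lies among Etv2_OE for the 4 ETS motifs and with the other controls for CTCF.

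For genes, each interval was assigned to the nearest protein-coding start within 100 kb. Of 14652 genes with a tested interval, 115 (0.785%) had a gained and 159 (1.09%) a lost interval, and 14 had both. No gene had more than 1 gained interval, and Hadh and Fam133b had 2 lost ones each. When the rank scores of all top-30000 summits were instead summed over each gene, 7 of 15001 genes (0.0467%) passed limma with Benjamini-Hochberg adjustment, 4 higher and 3 lower, and 1030 had an unadjusted p under 0.05.

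These 7 genes were largely neighbours that exchanged a summit. Sclt1, a centriole protein, had sums of 0.981, 0.959 and 0.967 in Etv2_OE and 0 in controls (limma adjusted p = 0.000537). D3Ertd751e, whose start lies 97 bp away, had 0 in Etv2_OE and 0.989, 0.969, 0.985 and 0.961 in controls. The genes together had a mean of 0.969 in Etv2_OE and 0.976 in controls. In the anterior libraries the Sclt1 sum was 0.955, 0.974 and 0.962 in Etv2_OE and 0.965, 0.982, 0.980 and 0 in controls. Gorasp1, a Golgi stacking protein, was higher and Ttc21a, 41 bp from it, lower, and Commd1, a regulator of copper and NF-kappa B signalling, was higher and Gm28048, 292 bp from it, lower. Slirp, an RNA-binding protein of mitochondria, was higher by 0.78, and Alkbh1, which starts 6 bp away, was lower by 0.84 but did not pass (limma adjusted p = 0.253). Without control 1, 28 genes passed, all 7 of these among them, and 5 were on chromosome Y, including Ddx3y (-0.89), and lower in Etv2_OE. Leaving out Etv2_OE 7, 9 or 10 gave 15, 15 and 12 higher and 12, 14 and 8 lower calls, leaving out control 2 gave 2 higher, and leaving out control 4 gave 6 lower.

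No endothelial or early blood gene passed the test. Of 30 listed endothelial genes, 21 were tested, 9 were higher and 12 lower, 0 passed limma, and none of 46 intervals was gained or lost. With 0.0467% of genes called and 0.4% and 0.476% of intervals gained and lost over all tested, counts of 0 in lists of this size, here and in the lists that follow, say nothing particular about their genes. The median difference of their sums was -0.03, against -0.01 over all 15001 genes, of which 7029 were higher and 7972 lower. The summed list had a mean of 16.7 ± 1.01 (SD, n = 3) in Etv2_OE and 17.7 ± 0.33 (SD, n = 4) in controls, and the libraries overlapped. Its most abundant gene was Cd34, and 9 of the 30 genes were at 0, Flt1 being near it. Of 20 early blood genes, 16 were tested, 8 higher and 8 lower, with sums of 9.76 ± 0.75 and 9.58 ± 0.78. In bulk lists such as these, a change in the number of cells of a type and a change in accessibility per cell cannot be told apart, and the described sort would remove CD31, Tie2 and CD45-positive cells.

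Single members stood apart without passing. Eng, an endothelial co-receptor of the TGF-beta family, had sums of 0.394, 0.653 and 0.477 in Etv2_OE and 0.137, 0.164, 0 and 0 in controls (limma adjusted p = 0.337). Over all genes, 416 (2.77%) had all 3 Etv2_OE sums above the 4 control sums, and 562 (3.75%) had all 3 below. Of the endothelial genes 2 were above, Eng and Rasip1, and 1 below. Kdr overlapped, with 0.380, 0.983 and 0.451 against 0.605, 0.184, 0.314 and 0.352, and so did Tal1, with 0, 0.276 and 0.254 against 0.410, 0.156, 0.078 and 0.297. In the anterior libraries Eng was 0, 0.277 and 0.210 in Etv2_OE and 0.215, 0, 0.095 and 0 in controls, which overlapped.

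Hedgehog and limb-patterning genes were as mixed. Of 12 SHH pathway genes 11 were tested, with 4 higher, 7 lower and 0 called, and 73 intervals without a gain or loss. Ptch1, the receptor and target of SHH, had 3.10, 4.05 and 3.44 in Etv2_OE and 3.00, 2.35, 2.69 and 3.05 in controls (limma adjusted p = 0.694), and Smo, the signal transducer, had 1.41, 1.48 and 1.70 against 2.10, 1.81, 1.75 and 1.84 (adjusted p = 0.690). Of 20 anterior-posterior genes 17 were tested, 10 higher and 7 lower, with the Sall4 promoter as the only gained interval. Hoxd12, a posterior digit gene, had 0.164, 0.259 and 0.291 in Etv2_OE and 0, 0.008, 0.009 and 0 in controls without passing (limma adjusted p = 0.465), and all 7 anterior libraries were at 0. The start of Hoxd12 itself held a summit in none of the 7 top-30000 lists. In whole lists 3 of 4 controls had one, at ranks 39547, 46184 and 47836, which lie beyond the end of the Etv2_OE 9 and 10 lists, so no direction can be read there. Hand2 overlapped, with 1.69, 2.95 and 2.38 against 1.66, 2.09, 1.58 and 2.03.

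Among the remaining lists no gene passed either. Of 13 tested FGF genes 10 were higher, and an intergenic interval 52844 bp from Spry1, an inhibitor of FGF signalling, was gained (chr3:37587003-37587202). Its scores were 0.226, 0.365 and 0.607 in Etv2_OE and 0 in controls. Of 19 limb mesenchyme genes, 9 were higher, with a gained interval at Tcf4 (0.13) and a lost promoter interval at Lhx9, a regulator of limb outgrowth (chr1:138848688-138848887, -0.13). NOTCH signalling had 5 higher and 6 lower of 11, with the nuclear mediator Rbpj at 0.978, 0.817 and 1.02 in Etv2_OE and 1.62, 1.36, 1.54 and 1.53 in controls (limma adjusted p = 0.253). The ETS factors had 13 higher and 8 lower of 21, BMP signalling 8 and 6 of 14, cartilage 6 and 5 of 11, and muscle progenitors 6 and 4 of 10. Lists of other tissues gave ectoderm and apical ridge 5 and 5 of 10 and neural crest 3 and 2 of 5. The housekeeping genes, listed as a control, split 6 and 6, but their summed list was higher in Etv2_OE without overlap, at 9.64, 9.48 and 9.80 against 9.04, 9.38, 8.72 and 9.20 in controls. Among them Ppia had 1.03, 1.06 and 1.05 against 0.858, 0.691, 0.679 and 0.666 (limma adjusted p = 0.321), a separation of the same kind as in the named genes.

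**Figure D5:**
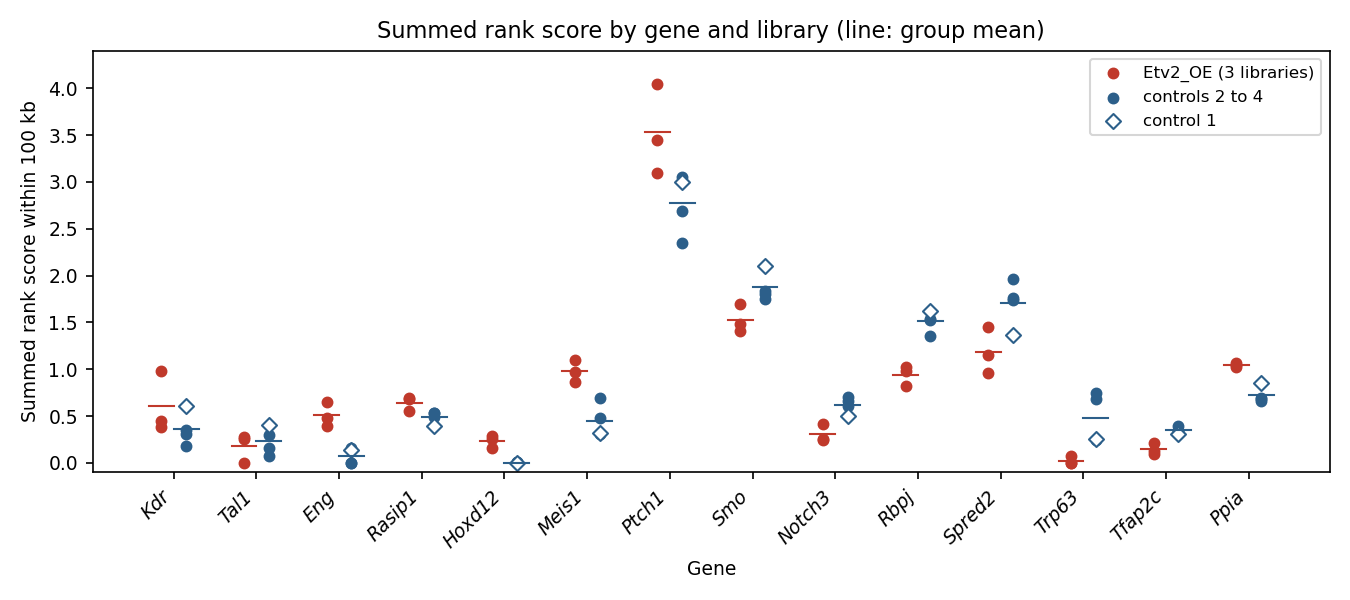
Summed rank score of the top-30000 summits within 100 kb of each gene's start, by library (red, 3 Etv2_OE; filled blue, controls 2 to 4; open diamond, control 1), with lines at the group means. Kdr and Tal1 are markers, and the other genes were chosen after their values were seen, with Ppia from the housekeeping list. None passed the adjusted test.

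The anterior libraries of the same label numbers served as measurements that the listing rule had not used. Gained intervals were listed in 36.8% of anterior Etv2_OE cases and 34.6% of anterior control cases, and lost intervals in 43.4% and 54.4%, against 61.9% and 63.4% over all tested intervals. For the 8 named gained intervals these were 5 of 24 and 9 of 32, and for the 8 named lost ones 13 of 24 and 21 of 32. Over 54001 intervals in a joint fit, 0 differed between the sides in their response (limma, 4.77% at an unadjusted p under 0.05, lowest adjusted p = 0.272). The anterior comparison alone called 0 intervals higher and 10 lower in Etv2_OE (limma with Benjamini-Hochberg adjustment), and 0 and 2 without control 1.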

How the data were processed

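ATAC-seq summit lists of 7 posterior and 7 anterior hindlimb libraries were used. The authors aligned reads to mm10 with Bowtie2 2.2.4, removed duplicates, shifted reads and called peaks library by library with MACS2, whose version no source used here gives. Each deposited summit carries a −log10 q-value, with a minimum at q = 0.05, used here for ranking alone. Depth is unknown, and no interval that needs it is given.

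Summits of the mitochondrial genome were dropped. Around each top-30000 summit, from the best relative rank down, a 200-bp interval was set where it did not overlap an earlier one, and it was retained if at least 2 of 7 libraries listed a summit within 200 bp. The rank score was (list length + 1 − rank)/list length, or 0. limma 3.58.1 (R 4.3.3, trended variance, Benjamini-Hochberg, threshold 0.05) compared groups. Single values used two-sided exact permutation tests, and site listing Fisher's exact test. Annotation was GENCODE M21 basic on GRCm38.p6, the assembly of mm10, with sequences read by samtools 1.23.1. 21 motifs were searched on both strands. Named regions were the 8 gained and 8 lost with the largest difference, under 50% masked as repeats. Those without a summit of the other group within 1 kb, the genes of the sums plot and the wider comparisons were added after the data were seen. The study describes its anterior tracks as hindlimbs of 3 embryos analysed separately, whereas 4 anterior control libraries were used here. For the posterior libraries, which share the label numbers, separate embryos are not spelled out, and p-values measure the spread between these libraries. Of the steps, limma was tried on simulated, normally distributed scores, and the placing and ranking of intervals on a short made-up list. The simulated scores lacked the values of 0 that unlisted intervals have. The libraries, lists and motifs were chosen with earlier results of these data known.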

Additional observations from a re-analysis of the deposited data

Results flagged for a closer look

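In 19 quantities tested for a stray library within a group of 4 controls, where chance flags about 1 in 20, the same library, control 1, was far from the other 3 in 4 of them. Its chromosome X share of the list was 2.27%, against 2.17% to 2.18% in controls 2 to 4. Its share of summits with the ETV2 motif was 11.25% over all top-30000 summits and 13.7% over those more than 1 kb from a start. The mean rank score of tested intervals with the motif over 1 kb from a start was 0.305, against 0.249 to 0.258 in the other controls. These 4 quantities are not independent of each other. The chromosome X share of Etv2_OE was 2.27%, 2.30% and 2.35%.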

How the results depend on the processing

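The limma count of 0 gained and 0 lost intervals stayed at 0 to 5 when each library was left out in turn, the 5 lost calls appearing without Etv2_OE 9 and without Etv2_OE 10. It became 25 gained and 17 lost with the trend off (38 of these 42 were in the all-against-none sets, 2 without a summit of the other group within 1 kb), 3 and 3 with quantile-normalized log2 values, and 1 lost with summits counted within 250 bp. The listing counts were 78 and 89 with the top 15000 summits, 935 lost in whole lists, 79 gained when no control summit was allowed within 1000 bp, and, leaving out a library, 252 to 621 gained and 343 to 602 lost. Genes near gained and lost regions were 73 and 103 within 25 kb. The gene sums gave 2 to 15 higher and 3 to 15 lower calls when a library was left out, 13 and 15 of them without control 1. Commd1, Gorasp1, Slirp and Ttc21a passed in some of these fits, including the fit without control 1, but not in all of them. The promoter difference was 5.27 points with whole lists and -0.42 to 0.33 with a library left out, and the GC difference 0.80 with whole lists, where the lists differ in length. The Etv2 gene difference was 33.3 points in the top 30000. At single intervals, counting summits within 1000 bp gave -0.0112 at Alg14, -0.0267 at Gulp1 (gained), -0.00109 at Klf4, -0.0577 at Arrdc3, -0.0630 at Tmtc2, -0.160 at Atp2b1, 0.0420 at Pyurf (lost), 0.0209 at Skil, 0.0849 at Hace1 and 0.108 at Clcn4, and at Klf4, Atp2b1 and Hace1 250 bp already gave the same values. Libraries that share a title number correlated at -0.032, -0.015 and -0.0039 after group means were removed. Pairs with unlike title numbers ranged from -0.025 to 0.043, so these values cannot decide whether the numbers pair libraries. The replicate block gave 0 and 0 calls. Leaving out a library or shortening lists changes by construction what the listing rule asks for, and for the other changes the cause was not tested. Unknown depth limits all listing counts.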
